A study of Mus musculus with 9 samples.

Results

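A set of 48 cell cycle genes was followed in nuclear RNA of male mouse liver after delivery of an active form of STAT5. The set was chosen by symbol, as genes of S phase, of the G2 phase and of mitosis, and all 48 were found among the 27434 named genes of the table. It was split by role into 10 genes of G1 and entry into S phase, 12 genes of DNA replication, 10 genes of entry into mitosis and 16 genes of the mitotic apparatus and exit from mitosis.

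The 5 STAT5ca livers came from male CD1 mice, an outbred stock, that had received 2e11 genome copies of AAV8-STAT5ca by tail vein. AAV8 is an adeno-associated virus that the labels describe as highly specific for hepatocytes, and STAT5ca is a constitutively active STAT5. Of these livers, 2 were taken 4 weeks and 3 were taken 6 weeks after injection. The 4 control livers came from male CD1 mice given vehicle, 2 at each time. In both groups mice were 11 to 12 weeks old at 4 weeks and 13 to 14 weeks old at 6 weeks. Controls received no virus, so an effect of the virus itself and an effect of STAT5ca cannot be told apart. The promoter that drives STAT5ca is not given in the sources used here. Nuclei were isolated from whole liver, so more cells of a type and more RNA per cell cannot be told apart either.

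The unit is RPKM, reads per kilobase of exon scaled to the library total, which corrects for gene length and library depth. Each RPKM value of a gene below is the authors' value for a whole group with both times pooled, so it carries no standard deviation. Folds and adjusted p-values are those of the authors' deposited table, headed as coming from edgeR, a tool for count models, in a table of 75794 features. A gene is said to have risen or fallen where that adjusted p was under 0.05. The library totals recovered from the table were 11823873 to 14863490 reads in STAT5ca livers and 9489045 to 13144589 reads in control livers. At that depth 1 read on a transcript of 1 kb added 0.0135 to 0.0169 RPKM to the STAT5ca value and 0.0190 to 0.0263 RPKM to the control value.

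A dividing cell passes through G1, copies its DNA in S phase, and separates the copies in mitosis. Cyclins bind and switch on cyclin-dependent kinases, E2F factors drive the genes of DNA replication, and a later wave of genes, which includes most of the mitotic kinases and motors, is switched on in G2 through short promoter elements. Most hepatocytes of an adult liver are at rest, many of them with more than 1 genome copy, and their mitotic genes are nearly silent.

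The promoters of 3 mitotic genes that rose and of 2 replication genes that did not pass the test show these elements. In the first 3 promoters the capitals mark the CHR (cell cycle genes homology region, TTTGAA or TTCGAA), an element of genes expressed in G2 and mitosis, and the CCAAT box, the site of the factor NF-Y, each on either strand. They belong to the 3 members with the largest folds among those that rose and hold a CHR. Cenpe and Ccnb1 rose with larger folds, and their promoters held no CHR match. Sequences are from RefSeq on GRCm38.p6, read 5′ to 3′ from 250 bases before to 50 bases after the annotated start, and all 5 genes lie on the minus strand.
Mki67, chr7:135716330-135716629: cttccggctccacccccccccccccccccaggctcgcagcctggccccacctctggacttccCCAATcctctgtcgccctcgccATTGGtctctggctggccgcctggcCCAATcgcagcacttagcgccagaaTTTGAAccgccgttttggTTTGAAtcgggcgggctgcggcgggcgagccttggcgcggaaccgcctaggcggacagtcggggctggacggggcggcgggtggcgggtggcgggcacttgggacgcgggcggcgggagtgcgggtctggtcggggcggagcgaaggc
Cenpf, chr1:189688037-189688336: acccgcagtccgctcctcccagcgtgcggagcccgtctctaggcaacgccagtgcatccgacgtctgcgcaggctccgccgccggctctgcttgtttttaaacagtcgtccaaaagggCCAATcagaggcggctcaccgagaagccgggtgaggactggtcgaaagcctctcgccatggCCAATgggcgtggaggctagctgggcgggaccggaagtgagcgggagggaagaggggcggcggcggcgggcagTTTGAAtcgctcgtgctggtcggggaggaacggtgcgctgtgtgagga
Cdc20, chr4:118437294-118437593: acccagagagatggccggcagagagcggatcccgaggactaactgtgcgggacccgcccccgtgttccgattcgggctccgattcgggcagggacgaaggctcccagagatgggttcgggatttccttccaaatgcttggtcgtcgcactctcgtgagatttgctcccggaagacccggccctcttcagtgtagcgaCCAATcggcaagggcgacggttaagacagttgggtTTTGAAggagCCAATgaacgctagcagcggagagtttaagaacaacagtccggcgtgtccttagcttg
In the other 2 promoters, from Mcm6, which holds the most matches, and Mcm3, which like Mcm5 and Mcm7 holds 2, the capitals mark letters bound by E2F factors (TTTGGCGC, TTTCCCGC, TTTGCCGC or TTTCGCGC on either strand). The CCAAT boxes of these promoters, 2 in Mcm6 and 3 in Mcm3, are left in lower case.
Mcm6, chr1:128359656-128359955: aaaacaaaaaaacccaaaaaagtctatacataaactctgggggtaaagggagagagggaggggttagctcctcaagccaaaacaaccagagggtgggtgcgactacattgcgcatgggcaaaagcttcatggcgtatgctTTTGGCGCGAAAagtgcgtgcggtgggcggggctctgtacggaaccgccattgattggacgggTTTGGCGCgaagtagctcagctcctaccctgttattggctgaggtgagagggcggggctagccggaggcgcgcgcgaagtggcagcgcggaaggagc
Mcm3, chr1:20820263-20820562: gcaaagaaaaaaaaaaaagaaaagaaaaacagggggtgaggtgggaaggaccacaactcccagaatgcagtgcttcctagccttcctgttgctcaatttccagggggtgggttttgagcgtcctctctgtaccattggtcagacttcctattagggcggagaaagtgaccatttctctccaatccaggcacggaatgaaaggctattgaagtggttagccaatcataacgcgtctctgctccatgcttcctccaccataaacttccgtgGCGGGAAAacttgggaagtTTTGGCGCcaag

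Of the 48 cell cycle genes, 22 rose, 1 fell and 25 did not pass the test in STAT5ca livers. Among all named genes 3.87% rose and 1.92% fell, and among the 14713 named genes with a mean of at least 0.1 RPKM over both groups 6.98% rose and 3.56% fell. All 48 genes met that minimum. Their median log2 fold in the authors' deposited table was 0.81, beside 0.03 over the 14713 named genes, and 43 of the 48 had a fold above 0 on the log2 scale. The 22 genes that rose lay between 0.207 and 9.21 RPKM in STAT5ca livers and between 0.0207 and 4.78 RPKM in control livers, with folds of 1.84 to 12.4 in the authors' deposited table. Their median level was 0.886 RPKM in STAT5ca livers and 0.218 RPKM in control livers. Scarce transcripts were common in both groups, and 18 of the 48 genes lay under 1 RPKM in STAT5ca livers, against 32 of 48 in control livers.

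Most of the genes that rose were mitotic. Of the genes of entry into mitosis 9 of 10 rose and of the mitotic apparatus 10 of 16 rose, with no gene of either group falling. In G1 and entry into S phase 2 of 10 rose and 1 fell, and in DNA replication 1 of 12 rose and none fell by the authors' edgeR test. The median log2 fold was 1.93 for entry into mitosis, 1.97 for the mitotic apparatus, 0.34 for G1 and 0.17 for DNA replication in the authors' deposited table. The summed level of the genes of entry into mitosis was 11.6 RPKM in STAT5ca livers and 2.95 RPKM in control livers. For DNA replication the sums were 62.5 RPKM in STAT5ca livers and 56.4 RPKM in control livers. The difference between the roles was not tested.

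**Figure D1:**
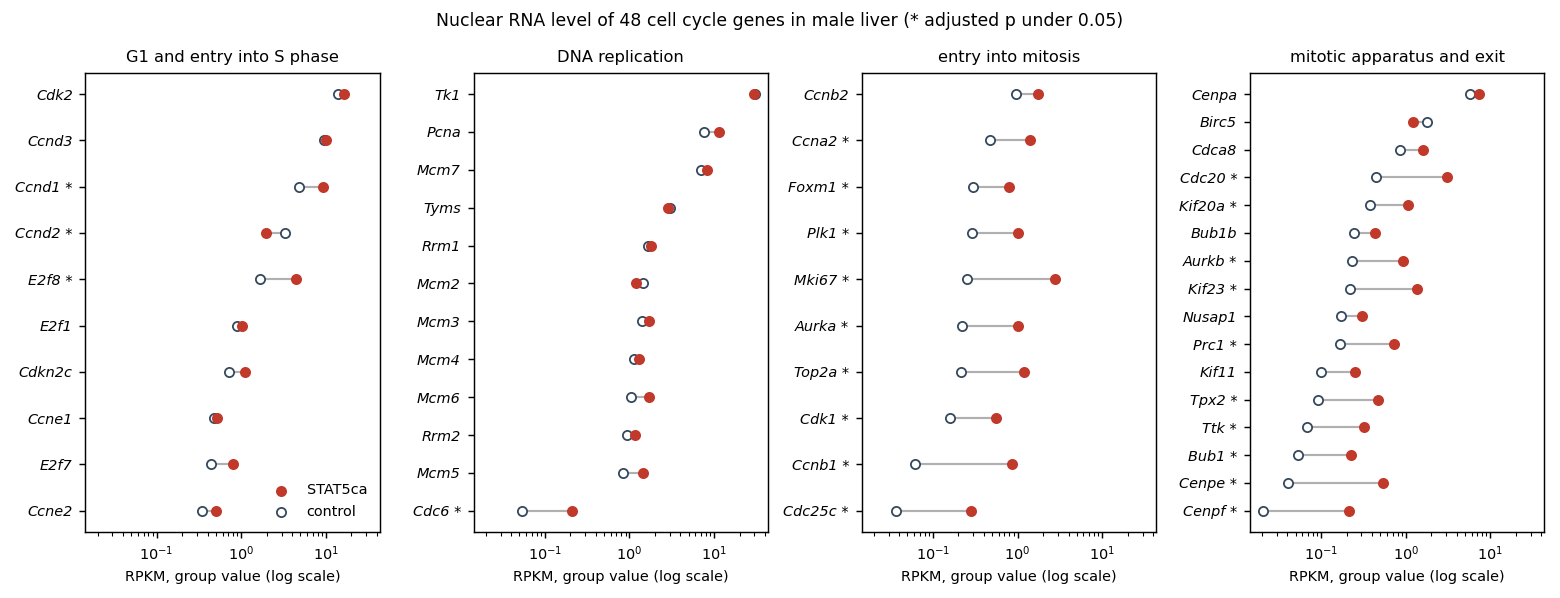
Levels of the 48 genes by role, as RPKM of the whole group on a log axis, with STAT5ca livers as filled points and control livers as open points. An asterisk marks genes past the threshold of 0.05 on the adjusted p of the authors' deposited table. In the mitotic panels most filled points lie well to the right of the open ones, while in the replication panel all genes but Cdc6 lie close together.

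The D-type cyclins, which answer growth signals in G1, moved in different directions. Ccnd1 (cyclin D1, chromosome 7, 152115837 to 152125830 on mm9) rose to 9.21 RPKM in STAT5ca livers, against 4.78 RPKM in control livers (1.84-fold with adjusted p = 0.00778 by the authors' deposited table). Ccnd2 (cyclin D2, chromosome 6, 127075728 to 127101066) was the only member that fell, to 1.96 RPKM in STAT5ca livers against 3.27 RPKM in control livers (1.75-fold lower, with an adjusted p = 0.00241 by the authors' deposited table). Ccnd3 (cyclin D3) stood at 10.05 RPKM in STAT5ca and 9.43 RPKM in control livers, with an adjusted p of 1 by the authors' deposited table. The 2 D-type cyclins that passed the test thus went in opposite directions.

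The cyclins and kinase that start S phase did not pass the test. Ccne1 (cyclin E1) lay at 0.511 RPKM in STAT5ca and 0.477 RPKM in control livers. For Ccne2 (cyclin E2) the levels were 0.507 RPKM in STAT5ca and 0.347 RPKM in control livers. Their partner Cdk2 was far more abundant, at 16.5 RPKM in STAT5ca and 13.8 RPKM in control livers. All 3 had an adjusted p of 1 by the authors' deposited table. Cdkn2c, which encodes an inhibitor of the kinases of cyclin D, had 1.09 RPKM in STAT5ca and 0.707 RPKM in control livers (adjusted p = 0.568 by the authors' deposited table).

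Among the E2F factors E2f8, an atypical repressor known in mouse liver for its part in making hepatocytes polyploid, rose to 4.42 RPKM in STAT5ca livers against 1.68 RPKM in control livers (2.50-fold with adjusted p = 5.02e-07 by the authors' deposited table). Its close relative E2f7 stood at 0.794 RPKM in STAT5ca and 0.434 RPKM in control livers (1.73-fold with adjusted p = 0.335 by the authors' deposited table). E2f1, an activator of replication genes, had 1.01 RPKM in STAT5ca and 0.897 RPKM in control livers (adjusted p = 1 by the authors' deposited table). E2f8 thus was the only E2F gene of the set past the threshold.

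E2f8 (chromosome 7, 56121800 to 56136966) is spanned in part by 2 antisense lncRNA features, and both rose with it. The feature nc_as_c7_6192 (chromosome 7, 56097718 to 56125011) had 0.976 RPKM in STAT5ca and 0.146 RPKM in control livers (6.31-fold with adjusted p = 2.18e-09 by the authors' deposited table). The feature nc_as_c7_6194 (chromosome 7, 56131427 to 56185870) had 4.56 RPKM in STAT5ca and 2.11 RPKM in control livers (2.05-fold with adjusted p = 0.00964 by the authors' deposited table). The libraries kept strand, but whether the counting used it is not given in the sources used here, so reads of E2f8 and of these antisense features cannot be told apart. The other 10 antisense features that overlap members, at Ccnd2, Cdkn2c, Mcm7, Tk1, Cdk1, Birc5, Cenpa and Prc1, did not pass the test. Of all 48360 lncRNA features 1.47% rose.

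In DNA replication only Cdc6, which loads the replicative helicase onto origins, passed the threshold, at 0.207 RPKM in STAT5ca and 0.0538 RPKM in control livers (3.64-fold with adjusted p = 0.0105 by the authors' deposited table). It was also the faintest of the 12 replication genes in both groups. The subunits of that helicase, Mcm2 to Mcm7, did not pass the test. Mcm7, which was the most abundant of them, had 8.29 RPKM in STAT5ca and 7.00 RPKM in control livers (adjusted p = 1 by the authors' deposited table). Mcm5 and Mcm6 were the subunits with the largest folds. Mcm5 had 1.45 RPKM in STAT5ca and 0.830 RPKM in control livers (1.65-fold with adjusted p = 0.317 by the authors' deposited table). Mcm6 had 1.69 RPKM in STAT5ca and 1.055 RPKM in control livers (1.52-fold with adjusted p = 0.294 by the authors' deposited table). Mcm2, Mcm3 and Mcm4 lay between 1.12 and 1.70 RPKM in both groups with adjusted p-values of 1 by the authors' deposited table, and Mcm2 was the subunit with the lower value in STAT5ca livers, 1.18 RPKM against 1.44 RPKM in control livers.

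Pcna, the sliding clamp of the polymerases, had 11.5 RPKM in STAT5ca and 7.63 RPKM in control livers (1.44-fold with adjusted p = 0.187 by the authors' deposited table). The genes that supply nucleotides did not pass the test. Tk1 (thymidine kinase) was the most abundant member in both groups, at 29.3 RPKM in STAT5ca and 30.2 RPKM in control livers. Tyms (thymidylate synthase) had 2.83 RPKM in STAT5ca and 3.02 RPKM in control livers. The subunits of ribonucleotide reductase stood at 1.79 RPKM in STAT5ca and 1.66 RPKM in control livers for Rrm1, and at 1.17 RPKM in STAT5ca and 0.940 RPKM in control livers for Rrm2. The adjusted p of all 4 was 1 by the authors' deposited table, a value that does not show that the groups are equal.

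Mki67 and Top2a are the usual marks of cycling cells, the first encoding the Ki-67 protein that coats mitotic chromosomes and the second a topoisomerase that untangles them. Mki67 (chromosome 7, 142881472 to 142908062) had 2.78 RPKM in STAT5ca and 0.254 RPKM in control livers (10.2-fold with adjusted p = 6.04e-36 by the authors' deposited table). Top2a (chromosome 11, 98854262 to 98885503) had 1.18 RPKM in STAT5ca and 0.216 RPKM in control livers (5.09-fold with adjusted p = 4.42e-15 by the authors' deposited table). Mki67 had the smallest adjusted p of all 48 genes.

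Of the kinase that starts mitosis, its cyclins and its activator, all but Ccnb2 rose. Ccnb1 (cyclin B1, chromosome 13, 101548695 to 101556441) reached 0.849 RPKM in STAT5ca livers, against 0.0617 RPKM in control livers (11.6-fold with adjusted p = 4.73e-09 by the authors' deposited table). Ccna2 (cyclin A2) reached 1.41 RPKM in STAT5ca livers, against 0.475 RPKM in control livers (2.83-fold with adjusted p = 2.52e-04 by the authors' deposited table). Cdk1, the kinase itself, had 0.549 RPKM in STAT5ca and 0.160 RPKM in control livers (3.28-fold with adjusted p = 1.85e-04 by the authors' deposited table). Cdc25c, the phosphatase that activates it, was scarce in both groups, with 0.282 RPKM in STAT5ca and 0.0361 RPKM in control livers (6.87-fold with adjusted p = 0.0223 by the authors' deposited table). Ccnb2 (cyclin B2) was the most abundant of the B cyclins in controls and did not pass the test, at 1.73 RPKM in STAT5ca and 0.946 RPKM in control livers (1.72-fold with adjusted p = 0.178 by the authors' deposited table).

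Foxm1, the transcription factor of the G2 wave, rose to 0.795 RPKM in STAT5ca livers against 0.294 RPKM in control livers (2.54-fold with adjusted p = 6.19e-04 by the authors' deposited table). Plk1, a kinase that drives spindle assembly, had 1.02 RPKM in STAT5ca and 0.287 RPKM in control livers (3.39-fold with adjusted p = 4.37e-04 by the authors' deposited table). Aurka, the kinase of the spindle poles, also had 1.02 RPKM in STAT5ca livers and 0.222 RPKM in control livers (4.30-fold with adjusted p = 7.29e-06 by the authors' deposited table). Tpx2, which holds Aurka on the spindle and activates it, had 0.468 RPKM in STAT5ca and 0.0924 RPKM in control livers (4.58-fold with adjusted p = 1.35e-06 by the authors' deposited table).

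The large proteins of the outer kinetochore, where chromosomes meet the spindle, included the largest fold of the set in the authors' deposited table. Cenpe, a motor that carries chromosomes to the spindle equator (chromosome 3, 134875528 to 134936504), had 0.538 RPKM in STAT5ca and 0.0405 RPKM in control livers (12.4-fold with adjusted p = 3.00e-13 by the authors' deposited table). Cenpf (chromosome 1, 191464494 to 191511965) had 0.215 RPKM in STAT5ca livers and, with 0.0207 RPKM, the lowest level of the set in control livers (9.15-fold with adjusted p = 1.23e-10 by the authors' deposited table). Cenpa, the histone H3 variant that marks centromeres, was abundant in both groups at 7.24 RPKM in STAT5ca and 5.75 RPKM in control livers (1.196-fold with adjusted p = 1 by the authors' deposited table).

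The spindle checkpoint, which holds mitosis until all chromosomes are attached, showed a mixed result. Its kinases Bub1 and Ttk rose. Bub1 had 0.224 RPKM in STAT5ca and 0.0537 RPKM in control livers (4.02-fold with adjusted p = 0.0112 by the authors' deposited table). Ttk had 0.3203 RPKM in STAT5ca and 0.0677 RPKM in control livers (4.19-fold with adjusted p = 0.00698 by the authors' deposited table). The checkpoint protein Bub1b did not pass the test, at 0.436 RPKM in STAT5ca and 0.242 RPKM in control livers (1.69-fold with adjusted p = 0.718 by the authors' deposited table). Cdc20, the target of the checkpoint and the activator of the ligase that ends mitosis, rose to 3.06 RPKM in STAT5ca livers against 0.444 RPKM in control livers (6.41-fold with adjusted p = 2.17e-09 by the authors' deposited table).

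Only part of the chromosomal passenger complex rose. Its kinase Aurkb had 0.924 RPKM in STAT5ca and 0.229 RPKM in control livers (3.84-fold with adjusted p = 5.18e-05 by the authors' deposited table). Its subunit Cdca8 (borealin) had 1.60 RPKM in STAT5ca and 0.855 RPKM in control livers (1.77-fold with adjusted p = 0.170 by the authors' deposited table). Birc5 (survivin), another subunit, was the only mitotic member with the lower value in STAT5ca livers, 1.23 RPKM against 1.77 RPKM in control livers (1.51-fold lower, with an adjusted p = 0.330 by the authors' deposited table).

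The 3 members that build the central spindle, where cell division is completed, rose. Kif23, a motor that bundles its microtubules, had 1.37 RPKM in STAT5ca and 0.219 RPKM in control livers (5.78-fold with adjusted p = 2.20e-08 by the authors' deposited table). Prc1, which crosslinks them, had 0.731 RPKM in STAT5ca and 0.167 RPKM in control livers (4.11-fold with adjusted p = 1.44e-04 by the authors' deposited table). Kif20a, a motor needed for the last cut between daughter cells, had 1.07 RPKM in STAT5ca and 0.379 RPKM in control livers (2.65-fold with adjusted p = 0.00195 by the authors' deposited table). Kif11, the motor that pushes the spindle poles apart, missed the threshold narrowly at 0.253 RPKM in STAT5ca and 0.0995 RPKM in control livers (2.38-fold with adjusted p = 0.0518 by the authors' deposited table). Nusap1, a spindle protein, had 0.308 RPKM in STAT5ca and 0.170 RPKM in control livers (1.70-fold with adjusted p = 0.7995 by the authors' deposited table).

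The other genes of the pathway, 107 in 3 lists that hold none of the 48, were read in the same way. These lists were chosen with earlier results of these data known, so their counts are not an independent test. Of 48 other mitosis genes 31 rose and 1 fell, with a median log2 fold of 1.66 in the authors' deposited table, or 1.60 over the 47 genes above 0 in controls. Of 32 other replication genes 3 rose and none fell by the authors' edgeR test, with a median of 0.22. Of 27 genes that restrain the cycle or act in G1 2 rose and none fell by the same test, with a median of 0.11. Beside the 6.98% of named genes that rose and the 3.56% that fell, the count in the list of restraint and G1 was close to the background and that of the replication list little above it.

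**Figure D2:**
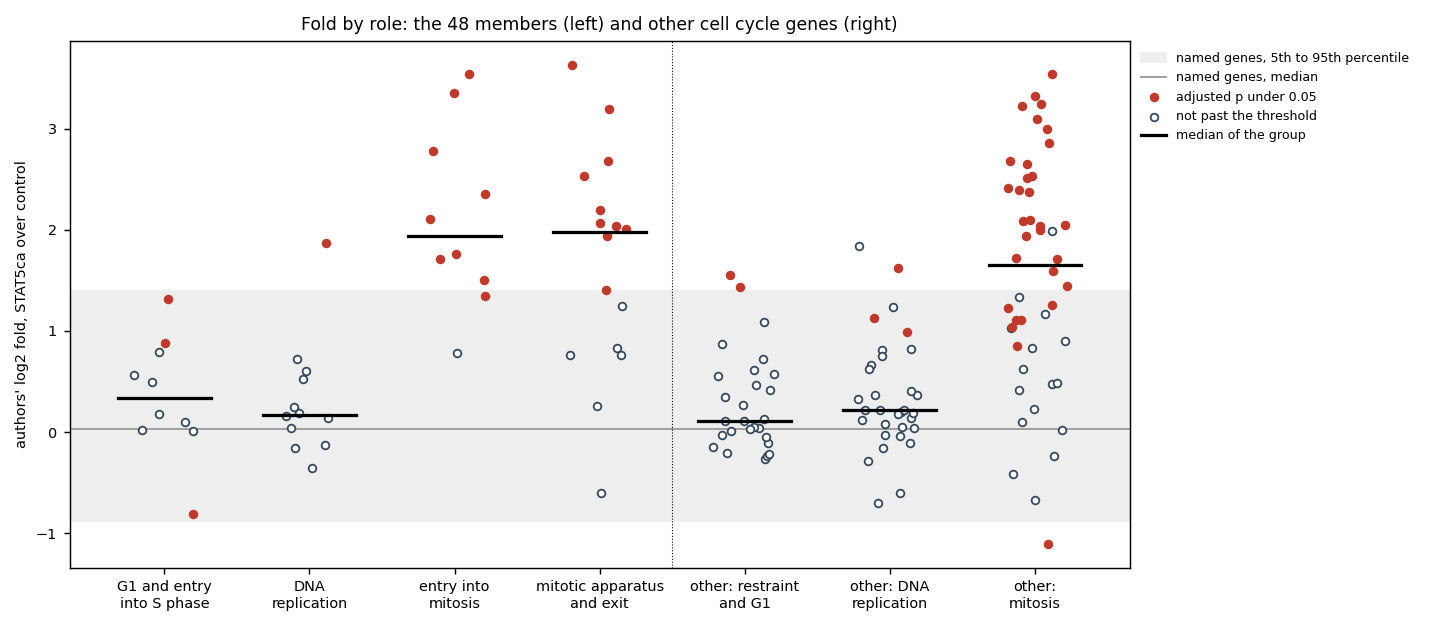
The log2 fold of each gene in the authors' deposited table by role, with the 48 genes on the left and 3 further lists on the right; bars mark medians, and the band holds the 5th to 95th percentile of named genes with a mean of at least 0.1 RPKM. Melk is not drawn but counts in its list's median. The medians of the mitotic groups lie at 1.93, 1.97 and 1.66, above the band's centre of 0.03 and above the medians of the G1 and replication groups.

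Among the other mitosis genes Melk, a kinase of dividing cells, had 0.315 RPKM in STAT5ca livers and was listed at 0 in control livers (adjusted p = 3.43e-05 by the authors' deposited table). The authors list a fold for Melk, but with a control level of 0 it is not printed here. Nuf2, a part of the complex that grips microtubules at the kinetochore, had 0.471 RPKM in STAT5ca and 0.0309 RPKM in control livers (11.6-fold with adjusted p = 3.19e-07 by the authors' deposited table). Ckap2, a spindle protein, had 1.28 RPKM in STAT5ca and 0.116 RPKM in control livers (9.996-fold with adjusted p = 1.79e-07 by the authors' deposited table). All 3 were nearly silent in controls. Ube2c, the enzyme that supplies ubiquitin to the ligase switched on by Cdc20, had 1.97 RPKM in STAT5ca and 0.181 RPKM in control livers (9.46-fold with adjusted p = 6.22e-08 by the authors' deposited table). Depdc1a had 0.283 RPKM in STAT5ca and 0.0234 RPKM in control livers (9.37-fold with adjusted p = 2.47e-05 by the authors' deposited table). The exception was Spc24, which encodes another subunit of the complex that holds Nuf2 and fell to 3.30 RPKM in STAT5ca livers against 6.69 RPKM in control livers (2.15-fold lower, with an adjusted p = 0.0206 by the authors' deposited table).

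Of the replication genes outside the set, Uhrf1, which carries DNA methylation over to the new strand, rose 3.08-fold (adjusted p = 0.0137 by the authors' deposited table). Cdc7, the kinase that fires origins, rose 2.18-fold (adjusted p = 0.0176), and its activator Dbf4 rose 1.98-fold (adjusted p = 0.0230) in the authors' deposited table. All 3 stood between 0.775 and 1.53 RPKM in STAT5ca livers and between 0.232 and 0.732 RPKM in control livers. In the list of restraint and G1, Pkmyt1, a kinase that holds Cdk1 inactive, had 2.37 RPKM in STAT5ca and 0.761 RPKM in control livers (2.93-fold with adjusted p = 1.03e-04 by the authors' deposited table). Myc, a transcription factor that drives growth, had 6.17 RPKM in STAT5ca and 2.15 RPKM in control livers (2.71-fold with adjusted p = 2.15e-08 by the authors' deposited table).

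The level in control livers went with the call. In controls 9 of the 48 genes lay under 0.1 RPKM, and none did in STAT5ca livers. Of those 9, 8 rose, the exception being Kif11, while 5.84% of the 2635 named genes with a control level above 0 and under 0.1 RPKM rose. Between 0.1 and 0.5 RPKM 12 of 17 members rose, beside 11.2% of named genes. Between 0.5 and 1 RPKM none of 6 members passed the authors' edgeR threshold, beside 10.5% of named genes. Between 1 and 5 RPKM 2 of 10 members rose and 1 fell, beside 7.2% of named genes that rose. At 5 RPKM and over none of 6 members passed it, beside 3.28% of named genes.

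The members at 5 RPKM and over in controls were Tk1, Cdk2, Ccnd3, Pcna, Mcm7 and Cenpa, of which Cenpa alone is mitotic. Role and level are therefore mixed in these genes, and the part of each in the call was not tested. The median log2 fold of members by rising control level was 2.20, 1.71, 0.64, 0.09 and 0.17, beside 0.15, 0.15, 0.08, 0.08 and −0.04 for named genes in the same ranges of the authors' deposited table. The control level is also the denominator of the fold, so the 2 are not independent. Ccnb2, Cdca8, Birc5 and Cenpa had the highest control levels of the mitotic members and none passed the test. Taken by the mean of both groups, 4 of the 22 members at 1 RPKM and over rose and 1 fell, beside 6.09% of named genes at that level that rose and 3.95% that fell.

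**Figure D3:**
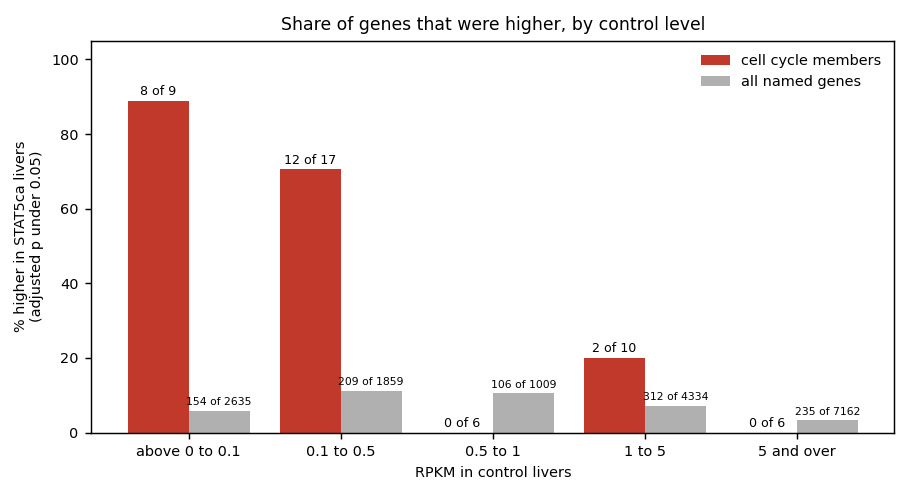
The share of genes that rose in STAT5ca livers, in percent, for the 48 cell cycle genes and for all named genes, by RPKM range in control livers. The share of members is 8 of 9 and 12 of 17 in the ranges under 0.5 RPKM, and 2 of 10 or none in the ranges above it.

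Reads in single control libraries could be recovered for 8 faint members, because a group value of few reads fits only certain whole numbers of reads. Libraries are ordered by depth, since the table does not say which sample each one is. The reads are those of the gene's exons, whose length on mm9 was found by the same search. On lncRNA features of known length the search found the right length in 94.7% of solutions with 3 to 8 control reads, 92.8% with 8 to 16 and 90.3% with 16 to 24. For genes with several annotated transcripts the range searched was wider than in this check. The length found was 5010 bases for Cdc6, 3095 for Ttk and 2307 for Ccnb1. All annotated exons joined came to 4783, 2902 and 2489 bases for these genes. For Cenpf the 2 lengths lay closer, at 11104 and 11130 bases. Reads and ratios given for a gene hold only if its length is right.

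Cenpe, with the largest fold, held 247 to 310 reads over the 5 STAT5ca libraries, the limits set by the group value, against 4, 3, 4 and 3 reads in the control libraries. Cenpf held 142 to 177 reads over the STAT5ca libraries, against 1, 1, 6 and 3 reads in the control libraries. Each of these genes was found in all 4 control libraries, at a handful of reads. Aurka held 120 to 149 reads over the STAT5ca libraries, against 4, 4, 6 and 6 in the control libraries. Tpx2 held 121 to 151 reads over the STAT5ca libraries, against 1, 6, 5 and 7 in the control libraries.

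For Aurka the control libraries lay close together, at 0.214, 0.189, 0.251 and 0.232 RPKM, and for Cenpe at 0.0543, 0.0359, 0.0424 and 0.0294 RPKM. The control level of these genes did not rest on 1 library. Leaving out each control library in turn left Aurka at 0.212 to 0.233 RPKM and Cenpe at 0.0359 to 0.0442 RPKM in controls, with ratios of the group levels of 4.41 to 4.84 for Aurka and 12.2 to 15.0 for Cenpe. For Cenpf control library 3, by order of depth, held 6 of the 11 control reads, and without it the control level was 0.0128 RPKM and the ratio of levels 16.8, beside 10.4 with all 4 libraries.

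Other genes were missing from some control libraries. Cdc6 held 62 to 77 reads over the STAT5ca libraries, against 5, 0, 3 and 4 reads in the control libraries. Ttk held 59 to 73 reads over the STAT5ca libraries, against 0, 2, 7 and 1 in the control libraries. Ccnb1 held 116 to 145 reads over the STAT5ca libraries, against 0, 0, 6 and 1 in the control libraries. Ttk and Ccnb1 lean on control library 3. Without it the control level of Ttk was 0.0282 RPKM, a ratio of levels of 11.3 beside 4.73 with all 4 libraries, and that of Ccnb1 was 0.0110 RPKM, a ratio of 77.2 beside 13.8. The fold of Ccnb1 thus rests on 7 control reads, of which 6 came from 1 library. Cdc25c held 33 to 40 reads over the STAT5ca libraries, against 3 control reads, all from control library 2, without which its control level was 0.

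Cdc25c was the only member with reads per library in both groups. Its STAT5ca value had 2 solutions, 5, 15, 6, 8 and 4 reads or 1, 5, 18, 8 and 7 reads by order of depth, against 0, 3, 0 and 0 reads in the control libraries. In levels these are 0.219, 0.547, 0.218, 0.285 and 0.140 RPKM or 0.0439, 0.182, 0.653, 0.285 and 0.244 RPKM in STAT5ca livers, against 0, 0.145, 0 and 0 RPKM in control livers. The groups overlap under both, since at least 1 STAT5ca library lies under the highest control library. A two-sided exact permutation test of the mean level, 5 libraries against 4, gave p = 0.0317 under each solution. Leaving out each library in turn gave exact permutation p-values of 0.0286 to 0.0714 under each solution. With 1 library fewer there are fewer possible p-values, so these do not show that the result depends on a single library. They also do not test the authors' adjusted p. The smallest p that the smaller designs allow is 0.0286 with 4 libraries against 4 and 0.0357 with 5 against 3. The ratio of reads was 8.27 (95% interval 2.62 to 41.9, counting error only) for the first solution and 8.48 (2.70 to 42.9) for the second.

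**Figure D4:**
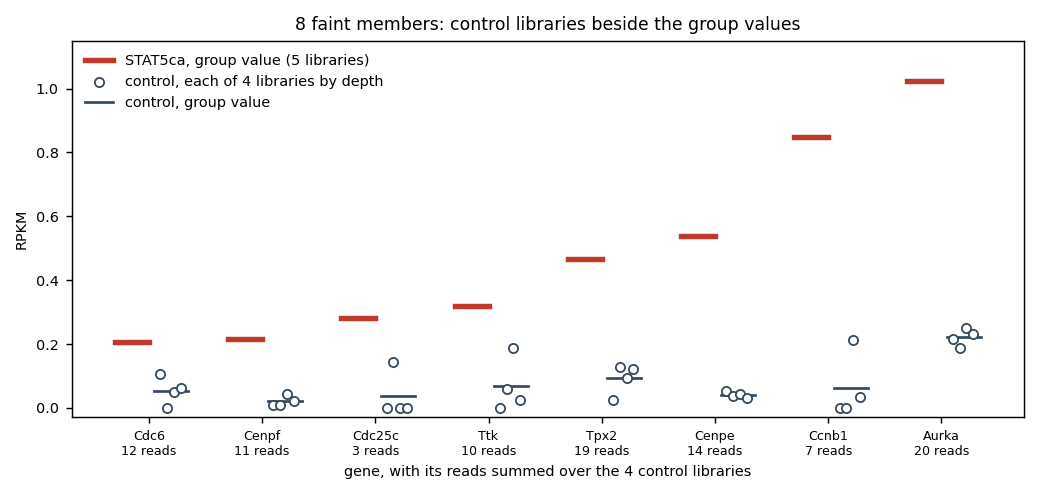
RPKM of the 8 faint genes with recovered control reads. Thick bars on the left of each gene are the STAT5ca group value, open points are the 4 control libraries in order of depth, and thin bars are the control group value. The control points of Aurka lie close together, between 0.189 and 0.251 RPKM, while those of Ccnb1 and Cdc25c include 1 high point each, at 0.214 and 0.145 RPKM, beside points at or near 0.

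Of other cell cycle genes with reads per library in both groups, Orc1, a subunit of the complex that marks origins, held 8, 5, 8, 5 and 4 reads in the STAT5ca libraries against 1, 0, 2 and 2 in the control libraries. Its groups did not overlap in RPKM, the lowest STAT5ca library having 0.0899 RPKM and the highest control library 0.0549 RPKM. Orc1 nevertheless did not pass the authors' edgeR test. The inhibitors of cyclin D kinases overlapped between the groups. Cdkn2a held 4, 2, 1, 1 and 3 reads in the STAT5ca libraries against 1, 1, 2 and 0 in the control libraries, and Cdkn2b held 5, 8, 7, 5 and 6 in the STAT5ca libraries against 2, 2, 7 and 7 in the control libraries. Cdkn2d held 3, 7, 9, 12 and 8 reads in the STAT5ca libraries against 1, 5, 2 and 3 in the control libraries. Among 1147 named genes with such reads, 3.66% had every STAT5ca library above every control library and 0.959% every one below.

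Markers of other cells that divide in or pass through the liver were read beside the mitotic genes, against the 6.98% of named genes that rose. The neutrophil and myeloid list was the only 1 of these 4 lists in which most markers rose. Of 9 markers of neutrophils and myeloid precursors 5 rose (Ngp, Mpo, Prtn3, Camp and Ltf) and none fell by the authors' edgeR test, with sums of 11.3 RPKM in STAT5ca and 5.43 RPKM in control livers. Ngp, Mpo, Camp and Ltf lay at only 0.0228 to 0.0320 RPKM in control livers, a level of very few reads. Most of the control sum was S100a8 and S100a9, which did not pass the test. S100a8 had 2.61 RPKM in STAT5ca and 1.84 RPKM in control livers. S100a9 had 3.02 RPKM in STAT5ca and 2.74 RPKM in control livers. Of 10 markers of Kupffer cells and macrophages 2 rose (Clec4f and Ccr2), with sums of 320.6 RPKM in STAT5ca and 199.4 RPKM in control livers. Of 8 B and plasma cell markers 2 rose (Cd79b and Pax5), with sums of 177.4 RPKM in STAT5ca and 147.7 RPKM in control livers. Of 10 T and NK cell markers 1 rose (Lck), with sums of 17.7 RPKM in STAT5ca and 11.1 RPKM in control livers. All markers given for these 4 cell classes were listed above 0 in both groups, and their part in the rise of the mitotic genes was not tested.

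Erythroid markers did not move together, with Tfrc higher, Alas2 lower, and sums of 121.4 RPKM in STAT5ca and 127.7 RPKM in control livers over 7 markers. The counts of this and the next lists stand beside 6.98% of named genes that rose and 3.56% that fell, at a mean of at least 0.1 RPKM. Endothelial markers summed to 190.4 RPKM in STAT5ca and 261.7 RPKM in control livers, with 1 of 6 lower (Clec4g). Stellate cell markers summed to 105.4 RPKM in STAT5ca and 157.4 RPKM in control livers, with 2 of 5 lower (Reln and Dcn). Of 5 cholangiocyte markers Spp1 rose and Sox9 fell, with sums of 76.4 RPKM in STAT5ca and 16.9 RPKM in control livers. Most of that sum was Spp1, and the other 4 markers summed to 3.31 RPKM in STAT5ca and 4.12 RPKM in control livers. The labelled tissue carried its markers: 6 hepatocyte genes summed to 16990 RPKM in STAT5ca and 7222 RPKM in control livers, and of these only Alb rose (3.13-fold with adjusted p = 1.51e-04 by the authors' deposited table). The other 5 summed to 2327 RPKM in STAT5ca and 2658 RPKM in control livers. Which cells of the liver held the mitotic transcripts was not tested.

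The promoter elements shown above were then counted in all members. A RefSeq promoter of 300 bases was found for 38 of the 48 genes, of which 15 had risen and 23 had not passed the test. For 4 of the 38 genes 2 promoters were listed, and a match in either was counted. A CHR was present in 12 of the 15 genes that rose (80.0%), in 7 of the 23 others (30.4%) and in 21.7% of 27025 genes with a promoter. By role it was present in 6 of 7 genes of entry into mitosis, 10 of 13 of the mitotic apparatus, 2 of 11 of DNA replication and 1 of 7 of G1. The G1 gene with a CHR was E2f8, which rose. The genes that rose with no CHR match were Cdc6, Ccnb1 and Cenpe, and Cenpe and Ccnb1 had the largest folds of the set.

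The CCAAT box was common in both sets, in 14 of 15 genes that rose and 17 of 23 others, against 41.1% of all genes. A CHR and a CCAAT box together were found in 12 of 15 genes that rose, 7 of 23 others and 9.65% of all genes. In 11 of the 12 genes that rose and hold a CHR, a match lay between 60 bases before and 50 bases after the start, a window chosen after the positions were seen. The same held for 5 of the 7 members with a CHR that did not pass the test, and for 30.2% of the 5254 genes with a CHR in the first promoter listed. Mki67 was the exception, with matches 116 to 111 and 98 to 93 bases before the start, and in Cdc20 the match lay 18 to 13 bases before it. Mitotic genes that did not pass the test also held the CHR, namely Ccnb2, Cdca8, Bub1b, Cenpa and Kif11. Within the mitotic members a CHR was present in 11 of 13 genes that rose and in 5 of 7 that did not pass the test. Among the members of G1 and replication it was present in 1 of 2 genes that rose and in 2 of 16 that did not pass. Mitotic genes were 13 of the 15 genes that rose and 7 of the 23 others, so role and call are mixed, and the part of each in the CHR share was not tested.

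Letters bound by E2F factors were found in 5 of 11 replication genes, 2 of 15 genes that rose and 2.6% of all genes. Mcm6 held 3 matches, 2 of which overlap, and Mcm3 held 2 within the 50 bases after the annotated start. The letters TTCNNNGAA, to which STAT5 binds, were found in none of the 15 genes that rose, in 1 of the 23 others (Mcm5) and in 9.55% of all genes with a promoter. These letters can overlap a CHR where the same bases spell both. Matches describe the 300 bases searched, and sites farther away were not searched.

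**Figure D5:**
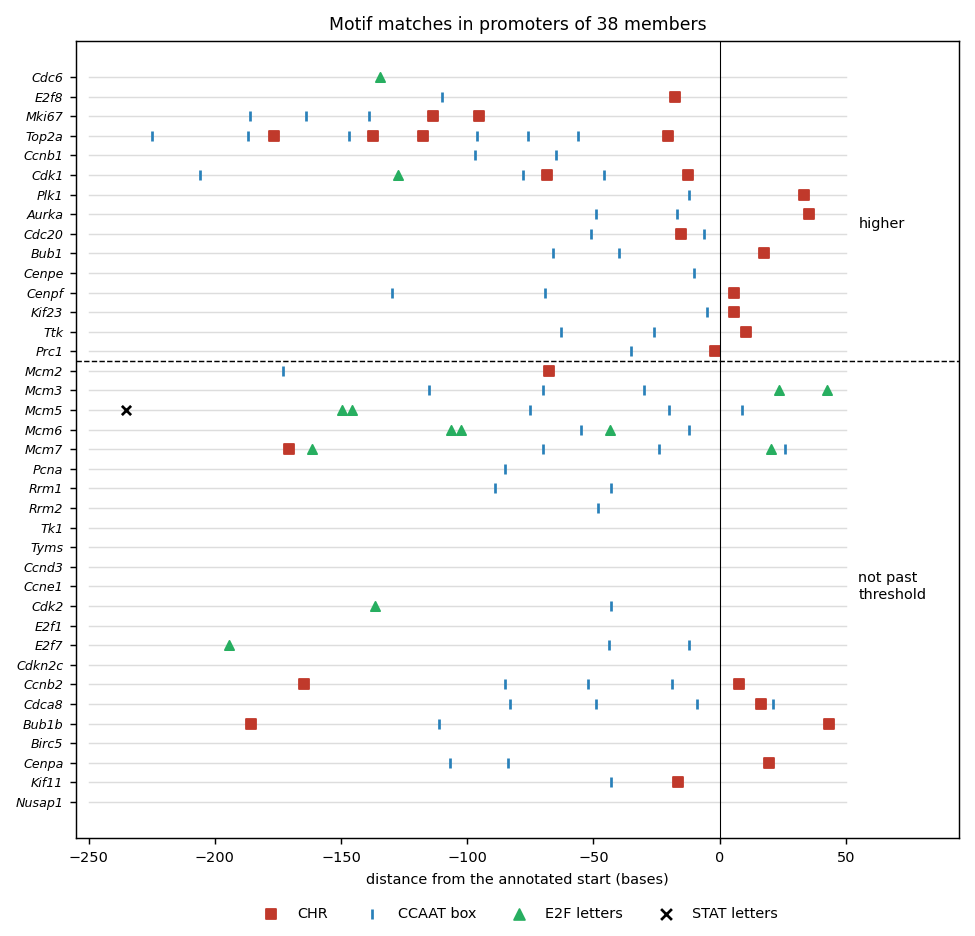
Matches of 4 elements in the promoters of 38 members, by distance from the annotated start in bases, with the genes that rose above the dashed line and the others under it. CHR matches near the start are seen in both blocks, in 11 of 12 genes with a CHR that rose and in 5 of 7 of the others, while E2F matches lie mostly in the replication genes of the lower block.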

How the data were processed

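Per the labels' protocols, 9 stranded libraries were made from polyadenylated RNA of liver nuclei. The submitters' processing notes name STAR, featureCounts, edgeR and the mm9 build, with no versions. For each feature the authors deposited an RPKM per group, a signed fold (a score, positive for STAT5ca over control) and an adjusted p-value, per the file headers. Not given in the sources used here are the adjustment, any covariates and the use of strand in counting. Interval starts behave as counted from 0, so 1 was added.

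As the table used here holds group values, the authors' adjusted p under 0.05 was the test, and counts and medians were computed here with Python 3.11.15, pandas 2.3.3 and numpy 2.4.6. The members and lists were chosen with earlier results of these data known. Every member is named. Of each other list, up to 5 genes past the threshold with the largest fold in each direction were named, if their mean RPKM reached 0.1. Of the marker lists, genes past the threshold or at 0 were named, and 2 markers are not reported here. Casc5, Sgol1 and Sgol2 were matched as Knl1, Sgo1 and Sgo2a.

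Library totals were read from lncRNA features holding 1 read. Reads per library came from solutions in whole reads to 8 significant digits, up to 25 control and 45 STAT5ca reads. Exon lengths were searched from 0.8 times the shortest annotated transcript to 1.15 times all annotated exons of the gene joined. The search was tested on lncRNAs of known length and on simulated data, with a range around 1 length. The permutation test and intervals used scipy 1.17.1, and plots matplotlib 3.10.9. Promoter positions are those of the first promoter listed for a gene. The labels number the animals within groups but the table does not separate them, so the spread between libraries enters only through the authors' adjusted p, other than for genes with recovered reads. Alternatives were other thresholds, minimum folds and levels, a second adjustment of p, other pseudocounts, other length ranges and, for genes with recovered reads, leaving out each library.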

Additional observations from a re-analysis of the deposited data

Results flagged for a closer look

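In 2 of the 8 sets of 4 control libraries with recovered reads, the highest library stood far from the other control libraries, by Dixon's test at the 95% level, which sets the gap to the nearest library against the whole range. For Ccnb1 control library 3 by order of depth had 0.214 RPKM (6 reads), against 0, 0 and 0.0330 RPKM (0, 0 and 1 read) in the other control libraries. For Cdc25c control library 2 had 0.145 RPKM (3 reads), against 0 RPKM in the other control libraries. The 95% level of this test assumes normally spread values, and at these few reads the levels move in steps of a single read. The share of such sets that chance alone puts past the limit is therefore not known. Where all reads of a gene fall in 1 library, as for Cdc25c, the gap equals the range and the limit is always passed. Among all 27 cell cycle genes with recovered control reads, members and other lists together, the highest RPKM was in control library 1 for 7 genes, in library 2 for 4, in library 3 for 13 and in library 4 for 3. Among the 8 members these numbers were 2, 2, 4 and 0.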

How the results depend on the processing

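Most calls rest on genes with few reads, and the depth of the libraries limits their precision. With a mean of at least 1 RPKM, 4 of 22 members rose, beside 6.09% of named genes, 1 of 2 in entry into mitosis, 1 of 4 in the mitotic apparatus, 0 in DNA replication, and 5 of 15 other mitosis and 1 of 22 other replication genes. With an adjusted p under 0.01, 19 members rose (without Cdc6, Cdc25c and Bub1), 0 in DNA replication and 0 in the other replication list, and 0 other mitosis genes fell. With a minimum fold of 2, 21 members rose (without Ccnd1), 1 in G1, and 0 fell. With p adjusted again over features of at least 0.1 RPKM, 23 members rose, Kif11 being added, and 5 other replication genes. The members' median log2 fold of 0.81 became 0.82, 0.88 and 0.31 as a log2 RPKM ratio with pseudocounts of 0.1, 0.01 and 1, and no member changed sign under these pseudocounts. The order of the members did change. With a pseudocount of 0.1 the largest log2 ratio was that of Mki67, at 3.02 beside 2.18 for Cenpe. With 0.01 it was that of Ccnb1, at 3.58 beside 3.44 for Cenpe. Over 11676 named genes, the authors' log2 fold minus the log2 ratio of RPKM had a median of −0.07. Length ranges of 0.9 to 1.1 and 0.7 to 1.3, chosen after seeing the data, gave reads for 10 and 7 members, 8 and 6 of them shared with the 8 reported, Aurka and Tpx2 having no single solution in the wider range. No paired analysis was possible because the table gives 1 value per group. For the same reason leaving out each replicate could not be run for the calls. It was run where reads per library were recovered: the control level moved by over 1.5 times for Ccnb1 (0.0110 to 0.0823 RPKM), Cenpf (0.0128 to 0.0248), Ttk (0.0282 to 0.0902) and Cdc25c (0 to 0.0482), and not for Cdc6, Aurka, Cenpe and Tpx2. The exact permutation p of Cdc25c lay between 0.02857 and 0.07143 under each solution, and passed 0.05 without control library 2 and without 1 STAT5ca library, library 5 in the first solution and library 1 in the second.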
